A study of Mus musculus with 9 samples.

Results

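Rab GTPases are small membrane-bound switches that tell vesicles where to go. RNA for 59 Rab genes, of 46517 genes listed, was compared between neutrophils of 3 compartments (bone marrow, blood and tumor) of mice with pancreatic tumors. The members were all rows whose symbol was Rab followed by a number and at most 1 letter, so Rab-like genes, effectors and pseudogenes were not among them. The libraries came from C57BL/6 OT mice, in which tumor cells derived from a KPC mouse (a genetically engineered, Pdx-cre driven model of pancreatic ductal adenocarcinoma) had been placed into the pancreas, and cells were taken at day 27. Each compartment had 3 libraries, which the study's methods describe as independent experiments, each a pool of 5 mice. All groups therefore carried the tumor, and no library from a tumor-free mouse was analysed here. The paper sets tumor neutrophils beside marrow and blood neutrophils of the same mouse, so the compartments may share mice. The labels do not say which libraries do, and the main fit did not pair them. The sort took live CD45+ Ly6G+ Ly6C+ cells without CD3, B220 or NK1.1, and the labels call the bone marrow cells Ly6G.hi and the blood and tumor cells Ly6G+. Since the gate named for bone marrow differs from the others in the labels, compartment and gate cannot be told apart in the comparisons with bone marrow.

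In its GTP-bound form a Rab recruits effectors such as tethers and motors to 1 class of membrane, exchange factors load the GTP, and GTPase-activating proteins end the signal. Newly made Rabs are carried by escort proteins to a geranylgeranyl transferase, which adds the lipids that hold them in the membrane, and GDP dissociation inhibitors (GDI) take them off again. In neutrophils, Rab27a and its effectors bring granules to the plasma membrane, whereas Rab5, Rab7 and related members act on endosomes and phagosomes.

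Between 4580807 and 7949367 reads per library were recovered from the deposited log2 FPKM values. Levels are given below as RPM, that is, recovered reads per 1000000 reads of the library size as the authors scaled it. All 10 mature neutrophil markers on the list had reads in every library, and their summed level was 11300 to 14400 RPM in tumor, below the 51000 to 54400 of bone marrow and the 42300 to 45700 of blood. Immature neutrophil markers (10 genes, 7 with reads in every blood library and 9 in every tumor library) were far higher in bone marrow (96000 to 110000 RPM) than in blood (3700 to 4580) or tumor (6570 to 9960). Marker genes of other cell types were also read, with the following sums. Markers of tumor epithelium (12 genes) summed to 2800 to 5340 RPM in tumor, with 10.6 to 13.6 in bone marrow, where Cldn4 and Sprr1a had no read, and 25.6 to 193 in blood. Acinar markers (8 genes) reached 603 to 2240 RPM in tumor and at most 9.31 elsewhere, with Amy2a5 at 0 in bone marrow and blood. Fibroblast markers (7 genes) reached 970 to 1110 RPM in tumor and at most 12.5 elsewhere, with Pdgfra at 0 in bone marrow and Lum and Pdgfrb at 0 in blood. Endothelial markers (6 genes) summed to 31.3 to 73.8 RPM in tumor and at most 3.40 elsewhere, with Cdh5 and Tek at 0 in blood. Platelet markers (11 genes) were highest in blood, at 751 to 1010 RPM, with 14.1 to 19.4 in bone marrow, where Gp6 had no read, and 6.17 to 18.8 in tumor. Macrophage markers (9 genes) summed to 1500 to 1680 RPM in blood, 453 to 501 in bone marrow and 409 to 586 in tumor. Lymphocyte markers (8 genes) were at 94.9 to 161 RPM in blood, 24.7 to 54.1 in bone marrow and 5.48 to 9.92 in tumor, where Ncr1 had no read. Red cell markers (6 genes) were at 284 to 576 RPM in blood, 31.8 to 71.2 in bone marrow and 11.3 to 129 in tumor. In such bulk libraries, fewer cells of a type and less RNA per cell cannot be told apart.

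The upstream sequences of 5 members with at least 10 reads in every library are shown because the tumor comparisons turn on them: Rab20 and Rab9, which were higher in tumor, and Rab29, Rab4b and Rab27a, which had the largest falls by the smaller of their changes in both tumor comparisons. The 5 were chosen after their values were seen. Each line gives the 250 bases before the annotated start, 5′ to 3′ on the strand of the gene, from RefSeq on GRCm38.p6. Capitals mark the words ACGTG and GCGTG on either strand, the core letters of the element bound by hypoxia-inducible factors. CACGTG holds ACGTG on both strands and counted as 2 words. The windows were chr8:11478641-11478890 (minus strand) for Rab20, chrX:166479868-166480117 (minus strand) for Rab9, chr1:131867027-131867276 (plus strand) for Rab29, chr7:27178884-27179133 (minus strand) for Rab4b and chr9:73044560-73044809 (plus strand) for Rab27a.
Rab20: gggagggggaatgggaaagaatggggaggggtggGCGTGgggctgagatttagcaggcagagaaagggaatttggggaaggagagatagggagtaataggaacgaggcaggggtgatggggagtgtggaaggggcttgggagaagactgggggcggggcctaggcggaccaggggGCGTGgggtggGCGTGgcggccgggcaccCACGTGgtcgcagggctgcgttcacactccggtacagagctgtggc
Rab9: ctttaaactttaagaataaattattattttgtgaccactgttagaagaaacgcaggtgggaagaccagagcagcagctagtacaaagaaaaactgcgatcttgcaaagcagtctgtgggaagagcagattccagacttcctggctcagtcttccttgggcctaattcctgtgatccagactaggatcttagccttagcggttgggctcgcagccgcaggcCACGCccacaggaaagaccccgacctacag
Rab29: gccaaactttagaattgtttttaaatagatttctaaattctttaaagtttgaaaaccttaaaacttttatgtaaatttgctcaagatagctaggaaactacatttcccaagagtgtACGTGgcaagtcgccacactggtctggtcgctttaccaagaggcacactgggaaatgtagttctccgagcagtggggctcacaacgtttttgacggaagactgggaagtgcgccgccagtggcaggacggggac
Rab4b: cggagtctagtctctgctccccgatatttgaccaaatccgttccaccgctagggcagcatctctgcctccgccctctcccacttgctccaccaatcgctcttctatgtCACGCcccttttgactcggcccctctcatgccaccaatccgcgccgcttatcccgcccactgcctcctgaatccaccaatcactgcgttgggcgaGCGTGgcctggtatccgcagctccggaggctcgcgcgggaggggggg
Rab27a: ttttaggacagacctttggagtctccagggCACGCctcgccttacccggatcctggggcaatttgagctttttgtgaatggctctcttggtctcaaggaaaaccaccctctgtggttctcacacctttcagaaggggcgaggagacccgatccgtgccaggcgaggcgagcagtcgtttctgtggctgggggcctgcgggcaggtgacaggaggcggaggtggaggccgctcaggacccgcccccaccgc
The Rab20 window held 5 such words, Rab4b 2, and Rab9, Rab29 and Rab27a 1 each. An upstream window was at hand for 48 members, 25 of which (52.1%) held at least 1 word, and among 27025 genes the share was 38.6%. Rab5a held the most of the members, 6 words, a number reached by 0.411% of all genes, and it did not pass the test in any comparison. Of the 19 members with a window that were lower in tumor than in both other compartments, 10 held a word, and of the 4 that were higher, 3 did. The words are a description of the letters in these windows and say nothing of binding.

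Of the 59 members, 47 had at least 10 reads in at least 3 libraries and were tested with limma among 13014 genes. More members fell than rose in tumor. Compared with blood, 22 of the 47 were lower in tumor and 8 were higher, at an adjusted p under 0.05. Over all genes tested in that comparison, 27.1% were lower and 39.2% higher, 66.3% in either direction. Compared with bone marrow, 22 were again lower and 8 higher, beside 25.8% lower and 30.0% higher over all genes (55.8% in either direction). Both tumor comparisons share the tumor libraries. Against both compartments 20 members were lower (background 18.0%) and 5 were higher (background 23.2%), Rab20, Rab9, Rab15, Rab4a and Rab34. Rab4a and Rab34 reached 10 reads in the tumor libraries alone, and Rab15 in these and in blood library 2. They therefore passed the read filter only through being high in tumor, and their calls are no separate support for a rise. Every tumor library lay below the 6 others for 20 of the tested members (19.1% of all genes) and above them for 7 (28.3%). The median log2 fold change of the members was -0.62 against blood and -0.53 against bone marrow, where all genes tested had 0.32 and 0.09.

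**Figure D1:**
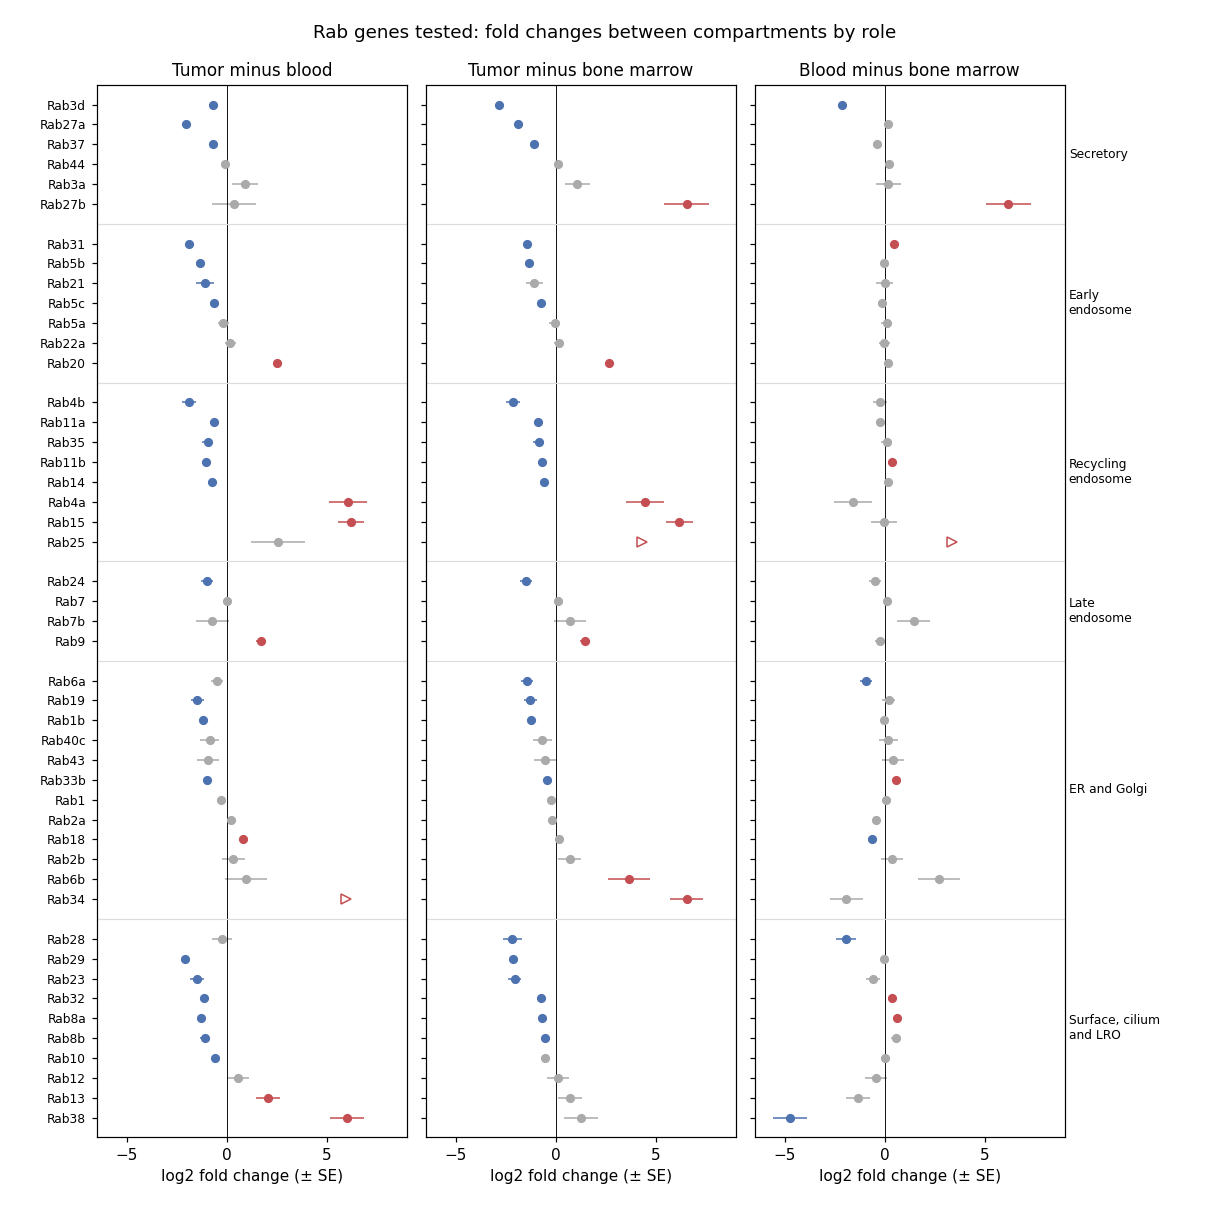
Log2 fold changes (x axis) of the 47 Rab genes tested, grouped by role (LRO, lysosome-related organelle), in the 3 comparisons. Points are limma estimates and bars are SE, red marks genes called higher and blue genes called lower at an adjusted p under 0.05, grey the rest, and open triangles are lower bounds for genes with no read in the lower group. Most members in the tumor panels lie left of 0, with 22 blue and 8 red in each, whereas the right panel has 5 blue and 7 red.

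The size of this split depended on the scaling of the libraries. The authors' scale factors were 1.085 to 1.221 in tumor but 0.796 to 0.882 in bone marrow and 0.818 to 0.863 in blood. With plain library totals the median of all genes moved to 0.76 against blood and 0.54 against bone marrow, and the members' median moved to -0.17 and -0.09. The members then split into 11 higher and 14 lower against blood and 11 higher and 13 lower against bone marrow. Their median stayed below that of all genes under the authors' scaling, plain totals, quantile normalization and median centring. Summed over the 59 members, Rab reads took 4480 ± 432 RPM in tumor, beside 7180 ± 334 in bone marrow and 7150 ± 384 in blood (SD, n = 3). With plain totals the sums were 5130 ± 193 RPM, beside 6020 ± 56.3 and 6000 ± 225 in the same order (SD, n = 3), so the tumor libraries were the lowest under both scalings.

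The secretory group (Rab3, Rab27, Rab37 and Rab44) held Rab3d and Rab27a among its members. Rab3d was lower in blood than in bone marrow and lower again in tumor, and Rab27a was lower in tumor than in both and did not pass between blood and bone marrow. Of the 6 secretory members tested, 3 were lower in tumor than in both other compartments, Rab27a, Rab3d and Rab37, beside 18.0% of all genes tested. Rab27b was higher than in bone marrow, and Rab44 and Rab3a did not pass in any comparison.

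Rab27a, which docks granules at the plasma membrane and is lost in Griscelli syndrome, had 419, 488 and 441 RPM in the bone marrow libraries, 450, 559 and 487 in blood and 116, 132 and 116 in tumor. Every tumor library was below every other one, and bone marrow and blood overlapped. The log2 fold change in tumor was -2.04 ± 0.12 (SE) against blood and -1.89 ± 0.12 against bone marrow (adjusted p = 3.43e-07 and 5.35e-07), a 4.11-fold and a 3.71-fold lower level. Between blood and bone marrow it was 0.15, with a 95% interval of -0.12 to 0.41.

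Rab3d, a Rab of secretory granules, had 797, 883 and 796 RPM in bone marrow, 176, 193 and 197 in blood and 117, 89.4 and 146 in tumor. The 3 compartments did not overlap, and the largest step lay between bone marrow and blood, with a log2 fold change of -2.13 ± 0.16 (adjusted p = 4.24e-06). Against bone marrow the tumor libraries had a value of -2.84 ± 0.16 (adjusted p = 2.85e-07), a 7.15-fold lower level, and against blood one of -0.71 ± 0.16 (adjusted p = 0.00266). Immature neutrophil markers also were highest in bone marrow, at 96000 to 110000 RPM, and their part in the Rab3d level was not tested. The Rab3d fall between blood and tumor did not pass with plain totals (adjusted p = 0.212) or quantile normalization (adjusted p = 0.133).

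Rab37, known from mast cell granules, had 53.8, 55.1 and 61.4 RPM in bone marrow, 36.7, 48.2 and 46.1 in blood and 28.8, 27.9 and 23.4 in tumor. All 3 tumor libraries were the lowest, with log2 fold changes of -0.70 ± 0.16 against blood and -1.09 ± 0.16 against bone marrow (adjusted p = 0.00264 and 0.000181). With plain totals the comparison with blood did not pass (adjusted p = 0.168). Rab37 lies across Cd300lf on the opposite strand, which had 6997 to 19441 reads per library, and the protocol does not mark strand, so reads of the 2 genes cannot be told apart where they overlap.

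Rab44, a large Rab with EF-hands found in immune cells, did not pass in any comparison. It had 422, 422 and 362 RPM in bone marrow, 445, 504 and 456 in blood and 453, 545 and 343 in tumor. The 3 compartments overlapped. The 95% interval of its log2 fold change in tumor was -0.45 to 0.26 against blood and -0.22 to 0.48 against bone marrow, so a fall of the size seen for Rab27a lay outside both.

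Rab27b, the close relative of Rab27a that acts in platelet granule release, had 0, 0.530 and 1.96 RPM in bone marrow, 23.0, 30.4 and 22 in blood and 34.2, 22.7 and 41.8 in tumor. Blood and tumor overlapped, and bone marrow lay far below both. Rab27b was higher than in bone marrow by 6.54 ± 1.11 in tumor (adjusted p = 0.000517) and by 6.18 ± 1.11 in blood (adjusted p = 0.00126) on the log2 scale. Without 1 library these values ranged from 4.91 to 7.80 and from 4.55 to 7.44, the lowest without bone marrow library 1 and the highest without bone marrow library 3, and the 3 bone marrow libraries held 0, 3 and 13 reads. Platelet markers were at 751 to 1010 RPM in blood but at 6.17 to 18.8 in tumor, where Rab27b overlapped its level in blood. The part of other cells in either level was not tested.

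Rab3a, the Rab of synaptic vesicles, had 4 to 35 reads per library, that is 2.99, 0.707 and 2.11 RPM in bone marrow, 1.77, 1.61 and 2.35 in blood and 5.0, 1.98 and 4.41 in tumor. The groups overlapped, and log2 fold changes of 0.89 and 1.08 in tumor did not pass (adjusted p = 0.24 and 0.178). Rab3b had 7 reads in 1 tumor library and none in the 8 others, and Rab3c had at most 2 reads in any library, so neither was tested.

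**Figure D2:**
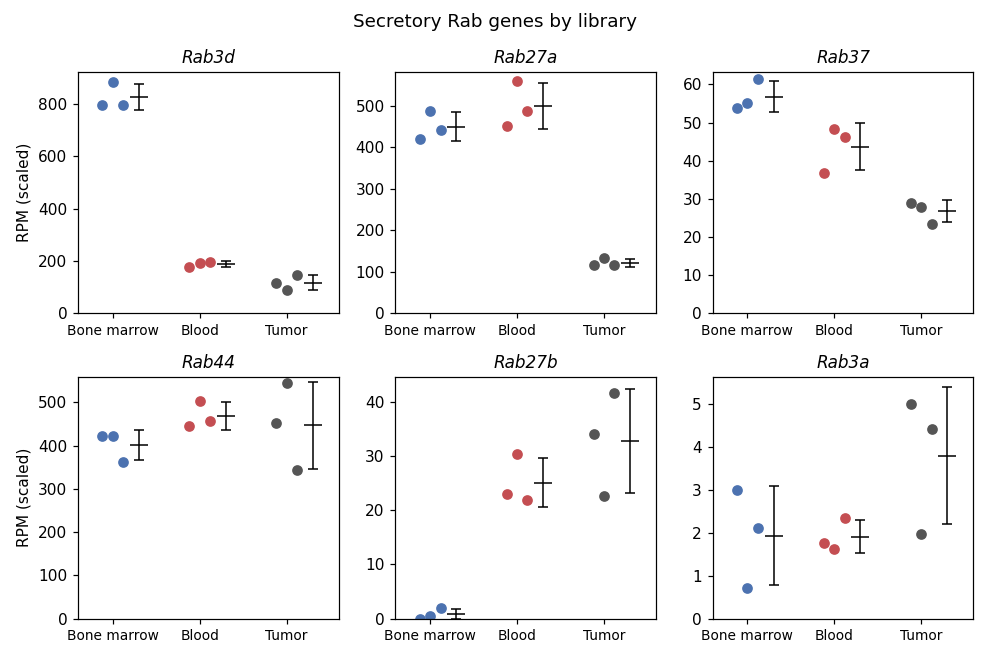
RPM (y axis, from 0, a separate scale for each gene) of the 6 secretory Rab genes tested, 1 point per library, with the mean ± SD of each compartment (n = 3) beside the points. Rab3d drops between bone marrow and blood, Rab27a and Rab37 are lowest in tumor, Rab44 overlaps throughout, and Rab27b is near 0 in bone marrow alone.

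Among the early endosomal members Rab20 rose in tumor and Rab31 fell. Of 7 early endosomal members tested, 4 were lower and 1 was higher in tumor than in blood, and 3 were lower and 1 higher than in bone marrow. All genes tested had 27.1% lower and 39.2% higher against blood, and 25.8% and 30.0% against bone marrow. Rab20, which acts on early endosomes and maturing phagosomes and is known as a hypoxia-inducible gene, had 49.8, 49.5 and 52.0 RPM in bone marrow, 54.7, 61.1 and 53.5 in blood and 338, 391 and 254 in tumor. Every tumor library lay far above the 6 others. The log2 fold change was 2.52 ± 0.15 against blood and 2.68 ± 0.15 against bone marrow (adjusted p = 4.38e-07 and 3.12e-07), a 5.73-fold and a 6.40-fold higher level. E230013L22Rik, on the opposite strand of Rab20, had 83 to 159 reads per tumor library and 7 to 15 elsewhere, while Rab20 itself had 2019 to 2957 reads in tumor.

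Rab31, which moves cargo between the trans-Golgi network and endosomes, had 691, 787 and 685 RPM in bone marrow, 922, 1050 and 1020 in blood and 243, 326 and 238 in tumor. It was lowest in tumor and highest in blood without overlap, with log2 fold changes in tumor of -1.90 ± 0.14 against blood and -1.43 ± 0.14 against bone marrow (adjusted p = 1.31e-06 and 1.02e-05).

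The Rab5 genes drive fusion of early endosomes, and of the 3 Rab5b and Rab5c passed in both tumor comparisons and Rab5a in neither. Rab5b had 429, 523 and 442 RPM in bone marrow, 390, 493 and 482 in blood and 183, 195 and 168 in tumor, and its tumor fold changes were -1.32 ± 0.13 and -1.35 ± 0.13 on the log2 scale (adjusted p = 9.09e-06 against blood and 8.97e-06 against bone marrow). Rab5c had 198, 179 and 185 RPM in bone marrow, 190, 182 and 146 in blood and 116, 126 and 95.2 in tumor, with log2 fold changes of -0.62 ± 0.14 and -0.75 ± 0.14 (adjusted p = 0.0027 and 0.00108), with both calls lost under plain totals (adjusted p = 0.256 and 0.0743). Rab5a, at 21.9 to 43.7 RPM in tumor beside 33.1 to 37.4 (bone marrow) and 30.9 to 49.9 (blood), overlapped throughout, with 95% intervals of its log2 fold change of -0.76 to 0.41 against blood and -0.65 to 0.52 against bone marrow. Rab22a, another early endosomal member, had values of 0.17 and 0.15 and did not pass. Rab21, which takes part in integrin traffic, had 14.7, 13.4 and 7.23 RPM in bone marrow, 9.36, 9.67 and 16.2 in blood and 8.70, 5.29 and 3.27 in tumor. Its value of -1.09 ± 0.43 against blood passed narrowly (adjusted p = 0.0458) and was lost with plain totals (adjusted p = 0.195), and in 7 of the 9 fits that each left out 1 library, all but those without bone marrow library 3 or tumor library 1 (adjusted p up to 0.172).

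Recycling endosomal members moved both ways. Of the 8 tested, 5 were lower in tumor than in both other compartments, Rab4b, Rab11a, Rab11b, Rab14 and Rab35, while Rab15 and Rab4a were higher than in both and Rab25 higher than in bone marrow. Over all genes tested, 18.0% were lower than in both and 23.2% higher than in both. Rab4b, which returns cargo quickly from early endosomes, had 10.5, 9.90 and 8.58 RPM in bone marrow, 7.34, 8.06 and 9.38 in blood and 1.61, 2.38 and 2.64 in tumor, with log2 fold changes of -1.91 ± 0.35 (adjusted p = 0.000727) against blood and -2.13 ± 0.35 (adjusted p = 0.00042) against bone marrow.

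The slow recycling pair Rab11a and Rab11b was lower in tumor as well. Rab11a had 191, 223 and 180 RPM in bone marrow, 174, 151 and 174 in blood and 148, 90.3 and 88.1 in tumor, and its tumor values were -0.65 ± 0.19 (adjusted p = 0.0114) and -0.90 ± 0.19 (adjusted p = 0.0022). Rab11b had 243, 218 and 210 RPM in bone marrow, 299, 291 and 275 in blood and 136, 135 and 145 in tumor, and its tumor values were -1.06 ± 0.10 (adjusted p = 8.3e-06) and -0.69 ± 0.10 (adjusted p = 0.00021). In both genes every tumor library was the lowest, although tumor library 1 was close to blood for Rab11a. Rab14, which acts between Golgi, endosomes and phagosomes, had 251, 244 and 243 RPM in bone marrow, 292, 260 and 278 in blood and 185, 160 and 151 in tumor (log2 fold changes of -0.75 ± 0.11 and -0.58 ± 0.11, adjusted p = 0.000156 and 0.0011). Rab35, which controls recycling to the plasma membrane, had 19.7, 17.5 and 14.0 RPM in bone marrow, 17.5, 14.9 and 23.0 in blood and 7.57, 8.86 and 12 in tumor (log2 fold changes of -0.96 ± 0.27 and -0.86 ± 0.27, adjusted p = 0.00912 and 0.0193). With plain totals Rab35 and Rab11a lost both calls (adjusted p = 0.0561 to 0.349), and Rab11b and Rab14 lost the one against bone marrow (adjusted p = 0.0866 and 0.352). The Rab11a call against blood was also lost without tumor library 2 or 3 (adjusted p up to 0.0508), and the Rab35 call against bone marrow without bone marrow library 1 or 2 or tumor library 1 or 2 (adjusted p up to 0.0727).

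Rab15, Rab4a and Rab25 had few reads outside the tumor. Rab15, a Rab of recycling endosomes described in neurons, had 0.748, 0.707 and 1.20 RPM in bone marrow, 0.506, 2.69 and 0.427 in blood and 51.7, 99.0 and 53.4 in tumor. Tumor differed by 6.20 ± 0.67 on the log2 scale against blood and by 6.18 ± 0.67 against bone marrow (adjusted p = 1.78e-05 and 2.12e-05). Without blood library 2, which held the highest level outside the tumor, the value against blood was 7.02. Fntb, which overlaps Rab15 on the opposite strand, had 55 to 84 reads per tumor library, below the 321 to 749 of Rab15.

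Rab4a, the paralog of Rab4b, had 0.299, 0.177 and 0.151 RPM in bone marrow, 0, 0.358 and 0 in blood and 4.51, 3.44 and 9.06 in tumor. It was higher in every tumor library, by 4.47 ± 0.95 on the log2 scale against bone marrow (adjusted p = 0.00234). Against blood (adjusted p = 0.00026) the 126 tumor reads stood against 2 blood reads, a 41.3-fold ratio with a 95% counting interval of 11.2 to 345. Rab4a passed the read filter through its tumor libraries alone, so neither adjusted p is separate support for its rise. Rab25, a Rab11 relative of epithelial cells, had 0 reads in the 3 bone marrow libraries, 0, 15 and 8 reads in blood and 21, 22 and 26 in tumor, that is 0, 2.69 and 1.71 RPM in blood and 3.38, 2.91 and 3.27 in tumor. Tumor was at least 20.1-fold higher than bone marrow (adjusted p = 0.00198), counting 3 reads over the bone marrow group as the floor, and it did not pass against blood (adjusted p = 0.119).

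**Figure D3:**
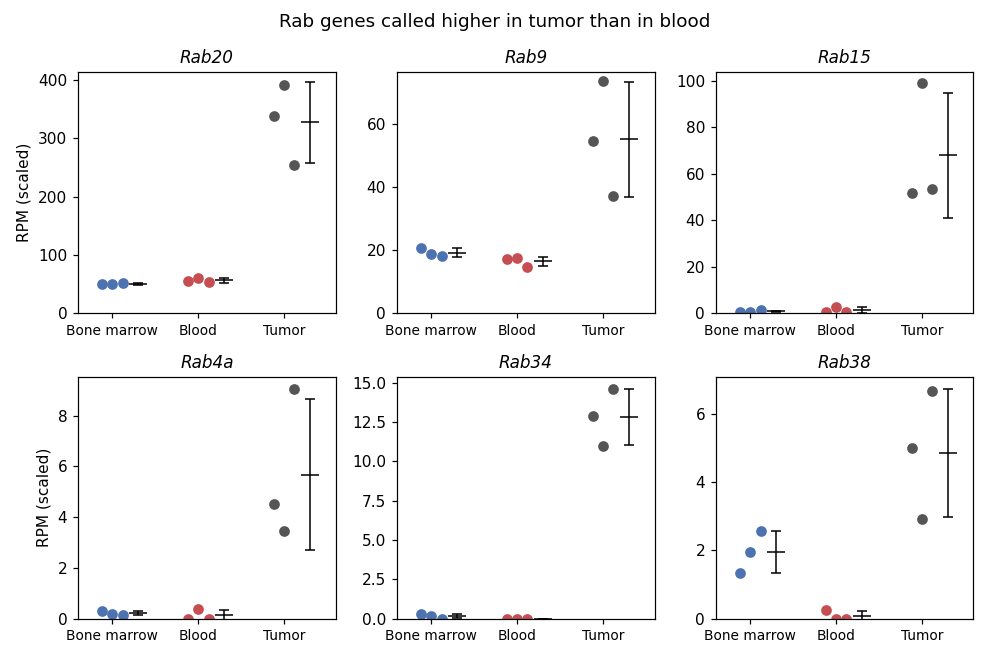
RPM (y axis, from 0, a separate scale for each gene) of 6 Rab genes called higher in tumor than in blood, 1 point per library, with the mean ± SD of each compartment (n = 3). Rab20 and Rab9 start from a clear level in bone marrow and blood, whereas Rab15, Rab4a and Rab34 lie near 0 outside the tumor and Rab38 lies near 0 in blood.

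Among the late endosomal members Rab9 rose and Rab24 fell, and Rab7 did not pass in any comparison. Rab7, the main Rab of late endosomes and lysosomes, had 580, 609 and 503 RPM in bone marrow, 565, 616 and 649 in blood and 672, 683 and 509 in tumor. The compartments overlapped, and 95% intervals of its log2 fold change in tumor were -0.29 to 0.33 against blood and -0.18 to 0.44 against bone marrow. Rab9, which returns receptors from late endosomes to the Golgi, had 20.8, 18.9 and 18.1 RPM in bone marrow, 17.2, 17.5 and 14.7 in blood and 54.6, 73.7 and 37.3 in tumor. Every tumor library was above the others, with log2 fold changes of 1.69 ± 0.24 against blood and 1.46 ± 0.24 against bone marrow (adjusted p = 0.00011 and 0.00037).

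Rab24, linked to autophagy, had 148, 113 and 96.7 RPM in bone marrow, 73.4, 79.0 and 101 in blood and 25.3, 45.5 and 65.7 in tumor (log2 fold changes of -0.98 ± 0.30 against blood and -1.47 ± 0.30 against bone marrow, adjusted p = 0.0145 and 0.00183). The call against blood was lost with plain totals (adjusted p = 0.147), quantile normalization (adjusted p = 0.155) and without blood library 3 (adjusted p = 0.0517). Prelid1 overlaps Rab24 on the opposite strand with 1348 to 2489 reads per library, more than Rab24 had. Rab7b had 4 to 77 reads per library and did not pass, and Rab9b had at most 1 read in a library and was not tested.

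On the path from the endoplasmic reticulum through the Golgi, Rab1b fell in tumor and Rab1 did not pass. Of the 12 members tested there, 3 (25.0%) were lower in tumor than in both other compartments (Rab1b, Rab19 and Rab33b) and 1 (8.33%), Rab34, was higher. The shares over all genes tested were 18.0% and 23.2%. Rab1b, which with Rab1 (the gene for Rab1a) drives traffic from the endoplasmic reticulum to the Golgi, had 290, 261 and 243 RPM in bone marrow, 243, 288 and 235 in blood and 104, 120 and 116 in tumor. Its tumor values were the lowest, with log2 fold changes of -1.17 ± 0.12 against blood and -1.22 ± 0.12 against bone marrow (adjusted p = 1.41e-05 and 1.2e-05). Rab1 had 262, 290 and 259 RPM in bone marrow, 288, 272 and 289 in blood and 240, 275 and 188 in tumor, which did not pass (-0.29 and -0.22, adjusted p = 0.0878 and 0.196).

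Rab33b, a Golgi Rab that binds the autophagy protein Atg16l1, had 46.5, 36.6 and 38.6 RPM in bone marrow, 52.6, 62.9 and 62.5 in blood and 33.4, 27.0 and 30.0 in tumor. Its fall against blood was -0.98 ± 0.16 (adjusted p = 0.000282). Against bone marrow it was -0.43 ± 0.16 (adjusted p = 0.0384), a call that was lost with plain totals, where the value was 0.02 (adjusted p = 0.914), and without bone marrow library 1 or 3 or tumor library 2 or 3 (adjusted p up to 0.148). Rab19, a Golgi-associated member, had 7.33, 7.07 and 9.94 RPM in bone marrow, 8.10, 9.85 and 9.81 in blood and 2.74, 3.44 and 3.78 in tumor (log2 fold changes of -1.48 ± 0.33 and -1.28 ± 0.33, adjusted p = 0.00241 and 0.00703). Its call against bone marrow was lost with plain totals (adjusted p = 0.0598).

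Rab6a, the Rab of retrograde Golgi traffic, separated bone marrow from the other compartments, with 510, 474 and 446 RPM in bone marrow, 145, 287 and 373 in blood and 133, 212 and 192 in tumor. It was lower in tumor than in bone marrow, with a log2 fold change of -1.43 ± 0.30 (adjusted p = 0.00187) and did not pass against blood (adjusted p = 0.156), where the libraries were spread widely. Its paralog Rab6b, known from neurons, had 3, 0 and 5 reads in bone marrow, 4, 13 and 7 in blood and 16, 40 and 16 in tumor (in the same order 0.449, 0 and 0.753, 1.01, 2.33 and 1.49, and 2.58, 5.29 and 2.01 RPM). The log2 fold change against bone marrow was 3.67 ± 1.05 (adjusted p = 0.0123), with 2.31 without bone marrow library 2 and 4.53 without bone marrow library 3, and did not pass without tumor library 2 (adjusted p = 0.0518) or under quantile normalization (adjusted p = 0.78). Rab18, a Rab of lipid droplets and the endoplasmic reticulum, was higher in tumor than in blood by 0.80 ± 0.14 (adjusted p = 0.000473), with 97.8 to 134 RPM against 62.5 to 72.4, and its level of 95.2 to 106 in bone marrow overlapped that in tumor. With median centring the value against blood was 0.32 and did not pass (adjusted p = 0.053).

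Rab34, which acts at the Golgi, in macropinosomes and in making cilia, had 2, 1 and 0 reads in bone marrow, 0 in all 3 blood libraries and 80, 83 and 116 reads in tumor, where this was 12.9, 11 and 14.6 RPM. Tumor was at least 60.9-fold higher than blood (adjusted p = 9.06e-06), with the floor at 3 reads over the blood group. Against bone marrow (adjusted p = 6.81e-05) the ratio was 81.3-fold, with a 95% counting interval of 27.5 to 397. Rab34 passed the read filter through its tumor libraries alone, so neither adjusted p is separate support for its rise. Rab2a, Rab2b, Rab40c and Rab43 did not pass in any comparison.

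Among members that act from the Golgi to the surface, at the cilium or at lysosome-related organelles, 5 of the 10 tested were lower in tumor than in both blood and bone marrow, and none was higher than in both. The shares over all genes tested were 18.0% and 23.2%. Rab29, which recruits the kinase LRRK2 to membranes, had 7.09, 7.14 and 7.05 RPM in tumor, beside 34.5, 29.9 and 29.4 in bone marrow and 32.1, 29.2 and 29.2 in blood. Its log2 fold change was -2.08 ± 0.18 against blood and -2.13 ± 0.18 against bone marrow (adjusted p = 3.35e-06 and 3.34e-06). Rab23, a ciliary Rab and negative regulator of Hedgehog signaling, had 36.6, 35.0 and 27.4 RPM in bone marrow, 25.8, 19.3 and 21.5 in blood and 13.7, 7.54 and 4.66 in tumor (log2 fold changes of -1.49 ± 0.34 and -2.06 ± 0.34, adjusted p = 0.00302 and 0.000472).

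Rab32, which sends cargo to lysosome-related organelles, had 371, 354 and 351 RPM in bone marrow, 449, 485 and 463 in blood and 219, 245 and 176 in tumor. The compartments did not overlap, and tumor was lower, with log2 fold changes of -1.14 ± 0.13 against blood and -0.76 ± 0.13 against bone marrow (adjusted p = 2.25e-05 and 0.000472). Rab38, its relative in the same route, had 9, 11 and 17 reads in bone marrow, 1, 0 and 0 in blood and 31, 22 and 53 in tumor, that is 1.35, 1.94 and 2.56 RPM in bone marrow, 0.253, 0 and 0 in blood and 5.0, 2.91 and 6.67 in tumor. Tumor stood 69.5-fold above blood, with a 95% counting interval of 12.2 to 2770 (adjusted p = 0.00013), and did not pass against bone marrow (adjusted p = 0.233).

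Rab8a and Rab8b carry cargo from the Golgi to the surface and cilium. Rab8a had 338, 303 and 326 RPM in bone marrow, 497, 498 and 480 in blood and 193, 195 and 208 in tumor, with log2 fold changes in tumor of -1.31 ± 0.10 (adjusted p = 1.35e-06) and -0.70 ± 0.10 (adjusted p = 0.000126). Rab8b had 351, 426 and 379 RPM in bone marrow, 537, 508 and 652 in blood and 322, 310 and 179 in tumor, with -1.11 ± 0.21 (adjusted p = 0.000861) and -0.55 ± 0.21 (adjusted p = 0.0425). Both genes were highest in blood and lowest in tumor without overlap. Under plain totals neither passed against bone marrow (adjusted p = 0.0723 for Rab8a and 0.652 for Rab8b). The Rab8b call against bone marrow was also lost with quantile normalization (adjusted p = 0.0702) and without blood library 1 or 2, any of the 3 bone marrow libraries or tumor library 3 (adjusted p up to 0.131).

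Rab10, another exocytic Rab, was lower in tumor than in blood, with a log2 fold change of -0.57 ± 0.21 (adjusted p = 0.0354), with 63.3 to 67.0 RPM in blood and 34.5 to 65.7 in tumor. This call was lost with plain totals (adjusted p = 0.662) and in 6 of the 9 fits without 1 library, those without blood library 1, 2 or 3, bone marrow library 1 or tumor library 1 or 2 (adjusted p up to 0.135). Rab28, a ciliary member, had 109, 109 and 115 RPM in bone marrow, 13.9, 29.7 and 60.4 in blood and 13.7, 36.1 and 30.7 in tumor, so bone marrow stood above both and the others overlapped (log2 fold change of -2.17 ± 0.48 in tumor against bone marrow, adjusted p = 0.00282). Rab13, a Rab of tight junctions, had 3.74, 2.65 and 1.66 RPM in bone marrow, 0.759, 1.97 and 0.640 in blood and 5.64, 3.04 and 4.15 in tumor. It was higher in tumor than in blood by 2.03 ± 0.60 (adjusted p = 0.0116), a call lost under quantile normalization (adjusted p = 0.282). Rab12 did not pass in any comparison.

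Rab15, Rab4a and Rab34, with few reads outside the tumor, moved with the markers of tumor epithelium, acinar cells and fibroblasts, which had summed levels of 2800 to 5340, 603 to 2240 and 970 to 1110 RPM in tumor. Rab25 had 0, 15 and 8 reads in blood and none in bone marrow, and tumor did not pass against blood (adjusted p = 0.119). Tumor epithelium markers summed to 25.6 to 193 RPM in blood and 10.6 to 13.6 in bone marrow. Rab38 was near 0 in blood, and Rab17, an epithelial Rab that was not tested, had 12, 5 and 10 reads in tumor, none in blood and 1 in bone marrow. The part of those other cells in the levels of Rab20, Rab9 and these members was not tested. The falls of Rab27a, Rab3d and the other members lower in tumor went along with mature neutrophil markers of 11300 to 14400 RPM in tumor beside 42300 to 54400 elsewhere, and the part of neutrophil share in them was likewise not tested.

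Within several pairs of close paralogs the shares of reads differed between the compartments. Rab4a took 59.1% to 77.4% of the reads of Rab4a and Rab4b in tumor, 1.72% to 2.78% in bone marrow and 0% to 4.26% in blood. Rab27a took 73.5% to 85.3% of the Rab27a and Rab27b reads in tumor, 94.8% to 95.7% in blood, and 99.6% to 100% in bone marrow, 3 ranges without overlap. Rab1b took 30.1% to 38.1% of the Rab1b and Rab1 reads in tumor, beside 47.3% to 52.5% (bone marrow) and 44.8% to 51.4% (blood). In the Rab5b and Rab5a pair the share of Rab5b was 79.4% to 89.3%, 92.0% to 93.6% and 90.6% to 93.1%, in the same order. The shares of Rab8a (37.5% to 53.7% in tumor) and Rab11b (47.8% to 62.1% in tumor) overlapped those of the other compartments. These shares do not depend on library scaling, and they were not tested.

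**Figure D4:**
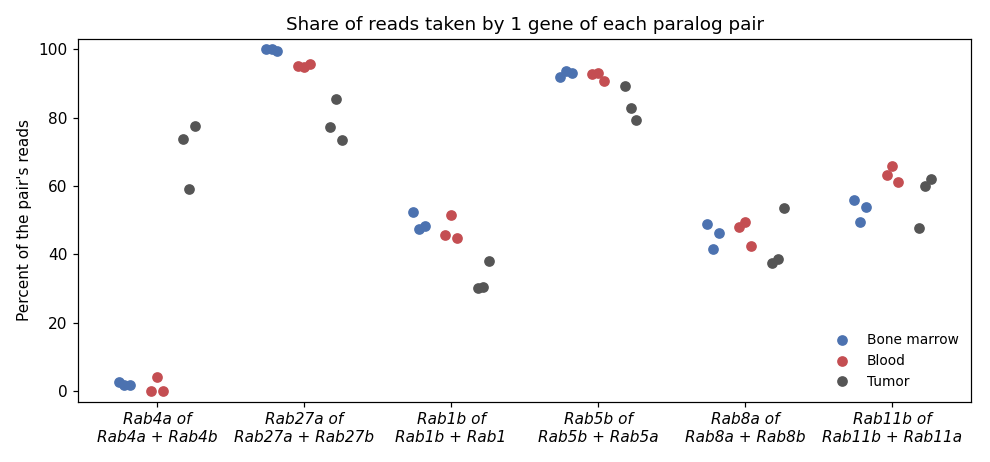
Percent of a pair's reads (y axis) taken by the gene named first, for 6 pairs of paralogs, 1 point per library, coloured by compartment. Tumor points stand apart from the others for Rab4a, Rab27a, Rab1b and Rab5b and overlap them for Rab8a and Rab11b.

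Because longer transcripts yield more reads, levels of different genes were compared per kilobase of exon (RPM per exon kb). In bone marrow the order was led by Rab7 (216 ± 21.1), Rab3d (197 ± 11.9) and Rab31 (189 ± 15.0), followed by Rab32 (153 ± 4.54) and Rab6a (128 ± 8.59), as mean ± SD with n = 3. The libraries of Rab7, Rab3d and Rab31 overlapped from each to the next, and Rab32 lay apart from both its neighbours. In blood it was led by Rab31 (262 ± 18.0), Rab7 (234 ± 16.2), Rab32 (199 ± 7.82) and Rab27a (129 ± 14.3), of which only Rab31 and Rab7 overlapped as neighbours. In tumor Rab7 (238 ± 37.3) and Rab20 (235 ± 49.6) overlapped and stood well above Rab32 (91.3 ± 15.0), Rab44 (88.2 ± 19.9) and Rab31 (70.5 ± 13.0), which overlapped one another as neighbours. Rab20 thus moved from rank 17 of the 59 in bone marrow and in blood to rank 2, while Rab3d moved from rank 2 in bone marrow to 15 in blood and 16 in tumor, and Rab27a from 7 and 4 to 15.

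The secretory and endosomal groups were also set side by side as shares of all Rab reads, which do not depend on library scaling. Secretory members took 24.2% ± 0.63 of Rab reads in bone marrow, while their share was 17.2% ± 0.965 in blood and 16.7% ± 0.0611 in tumor (n = 3, SD). Endosomal members took 40.3% ± 0.647, 45.2% ± 0.479 and 48.7% ± 1.26 in the same order (SD, n = 3). The secretory share of reads was thus highest in bone marrow and overlapped between blood and tumor, with library ranges of 16.4% to 18.2% and 16.7% to 16.8%. Read shares weigh longer transcripts more. In RPM per exon kb the mean secretory sums were 404, 277 and 157 in bone marrow, blood and tumor, beside 2010, 1990 and 1400 over all members. By these sums the secretory part was smaller in tumor than in blood. The endosomal sums were 852, 923 and 801. Single genes weighed on these shares. Rab3d held 826 of 1740 secretory RPM in bone marrow, 189 of 1230 in blood and 118 of 749 in tumor. Of the same sums, in the same order, Rab44 held 402, 468 and 447 RPM and Rab27a 449, 499 and 121. Rab44 was thus the largest part of the secretory sum in tumor. Rab20 held 50.4 of 2890, 56.4 of 3230 and 328 of 2190 endosomal RPM. The endosomal sum was lowest in tumor although its share was highest, since the sum over all members was lowest there too (4480 RPM, beside 7180 and 7150). Shares without Rab3d or Rab20 were not computed. The late endosomal share of all Rab reads was 16.2% ± 0.863 in tumor, beside 9.83% ± 0.704 in bone marrow and 10.1% ± 0.348 in blood (SD, n = 3), and most of it was Rab7. The late endosomal level itself was 728 ± 102 RPM in tumor, beside 707 ± 74.8 in bone marrow and 719 ± 55.8 in blood. Its higher share in tumor thus went with the lower sum over all members.

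By calls, 3 of 6 secretory members tested and 10 of 19 endosomal members were lower in tumor than in blood, whereas 0 and 4 were higher. Compared with bone marrow, 3 and 9 were lower and 1 and 5 were higher. All genes tested had 27.1% lower and 39.2% higher against blood, and 25.8% and 30.0% against bone marrow. The median log2 fold changes were -0.39 (secretory) and -0.65 (endosomal) against blood and -0.48 and -0.58 against bone marrow. The medians of all genes tested were 0.32 and 0.09. The difference between the 2 groups was not tested.

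**Figure D5:**
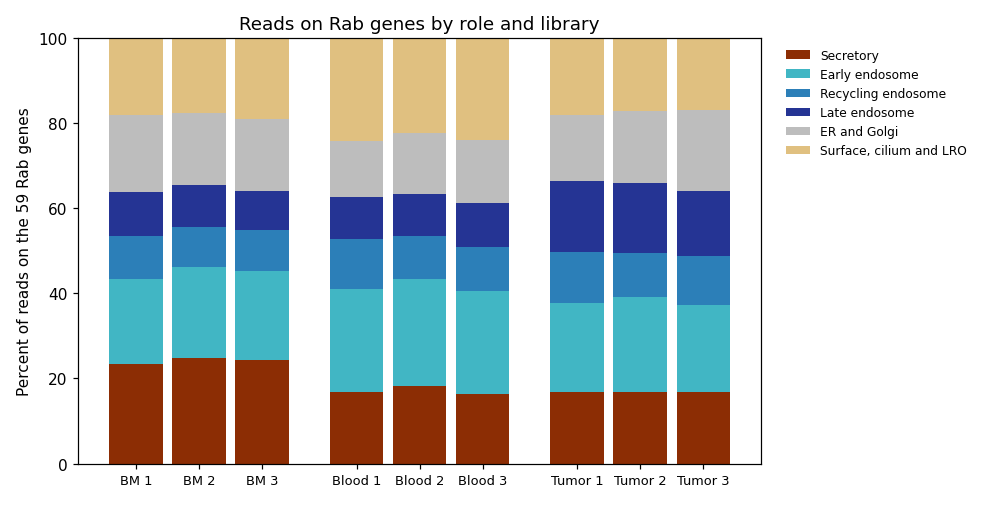
Percent of the reads on the 59 Rab genes (y axis, stacked to 100) taken by each role, for the 9 libraries (BM, bone marrow, and LRO, lysosome-related organelle). The secretory block is 23.5% to 24.7% in bone marrow and 16.4% to 18.2% elsewhere, and the late endosomal block widens from 9.10% to 10.5% in bone marrow and 9.83% to 10.5% in blood to 15.2% to 16.8% in tumor. The late endosomal members summed to a mean of 707, 719 and 728 RPM in these compartments, in the same order.

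Fewer members separated blood from bone marrow. In blood 7 of the 47 were higher and 5 lower, beside 17.8% and 24.7% of all genes tested (42.5% in either direction), and the members' median log2 fold change was 0.04 where all genes had -0.11. With median centring the split was 11 higher and 4 lower. The higher members were Rab27b, Rab25, Rab8a, Rab33b, Rab31, Rab32 and Rab11b. Of these, Rab8a rose by 0.61 ± 0.10 on the log2 scale (adjusted p = 0.000557), and Rab33b, Rab31, Rab32 and Rab11b by 0.37 to 0.55 (adjusted p = 0.015 to 0.0347). Rab25 had 23 reads in blood and none in bone marrow, at least 10.2-fold more (adjusted p = 0.0366). The lower members were Rab3d, Rab38, Rab28, Rab6a and Rab18. Rab38 was higher in bone marrow by 27.7-fold, with a 95% counting interval of 4.68 to 1120 (37 reads against 1, adjusted p = 0.00135). Rab28 fell by 1.93 ± 0.48 (adjusted p = 0.008), Rab6a by 0.93 ± 0.30 (adjusted p = 0.0268) and Rab18 by 0.61 ± 0.14 (adjusted p = 0.00466) on the log2 scale.

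Of these 12 calls, 6 held whichever 1 library was left out (Rab27b, Rab8a, Rab3d, Rab38, Rab28 and Rab18). Rab11b was lost without blood library 1 or bone marrow library 3 (adjusted p up to 0.0597), Rab31 without blood library 2 or 3 or bone marrow library 1 or 3 (up to 0.0689), Rab33b without library 2 or 3 of either compartment (up to 0.0625), Rab6a without blood library 1 or any bone marrow library (up to 0.0793), Rab32 without any 1 of these 6 libraries (up to 0.098), and Rab25 in all fits but the one without blood library 1 (up to 0.125). Quantile normalization lost Rab11b and Rab32 (adjusted p = 0.107 and 0.152), and median centring lost Rab6a (adjusted p = 0.0913). The number of members called higher fell to 3 without blood library 2 or 3 or bone marrow library 3 and to 4 without bone marrow library 2.

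The machinery that acts on Rabs was described from 4 lists with 121 genes found in the table, 109 of them tested. Compared with blood, 31 were higher and 41 lower in tumor, and compared with bone marrow, 32 and 42. Over all genes tested the share called in either direction was 66.3% and 55.8%, and the lists together lay near it against blood and above it against bone marrow. By direction, all genes had 39.2% higher and 27.1% lower against blood, and 30.0% and 25.8% against bone marrow. The lists together thus had more lower than higher calls in both comparisons, where all genes had more higher ones. Of the 4 lists, only the effectors had more higher calls. The median log2 fold change of the listed genes was 0.09 against blood and -0.40 against bone marrow, beside 0.32 and 0.09 over all genes. These splits use the authors' scaling, and the lists were not counted under other scalings. Gdi2, which codes for a GDP dissociation inhibitor, had log2 fold changes of -0.39 ± 0.10 against blood (adjusted p = 0.00662) and -0.65 ± 0.10 against bone marrow, with an adjusted p of 0.000317 there. Rabggtb, the beta subunit of the geranylgeranyl transferase, rose from 55 to 85 reads per library in bone marrow and 32 to 47 in blood to 252 to 395 in tumor (2.35 ± 0.23 and 1.82 ± 0.23 on the log2 scale, adjusted p = 7.75e-06 and 5.78e-05). Its partner Rabggta did not pass in either comparison (-0.19 and -0.42). Of the escort genes, Chm was lower than in blood (-0.92 ± 0.28, adjusted p = 0.0146) and Chml did not pass. Rabif had -0.57 ± 0.16 and -1.38 ± 0.16 (adjusted p = 0.00874 and 3.18e-05), and Rabac1 -1.26 ± 0.19 and -0.57 ± 0.19 (adjusted p = 0.000197 and 0.026), both lower in tumor.

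Of 34 exchange factors tested, 5 were higher and 13 lower in tumor than in blood, and 10 and 14 compared with bone marrow, beside 39.2% higher and 27.1% lower and then 30.0% and 25.8% over all genes. Rin1, an exchange factor for Rab5, had 163 to 267 reads per tumor library, 0 to 10 in blood and 0 to 15 in bone marrow (adjusted p = 0.00905 against blood). Dennd2a had 33 to 60 reads in bone marrow but 0 to 7 in blood and 1 to 5 in tumor (adjusted p = 0.0152 for tumor and 0.0148 for blood against bone marrow). It passed the read filter through bone marrow alone. Dennd4a was higher in blood than in bone marrow by 2.15 ± 0.20 (adjusted p = 1.44e-05).

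Of 30 GTPase-activating proteins tested, 9 were higher and 11 lower against blood and 6 and 14 against bone marrow, with the same shares over all genes beside them. Tbc1d10c, which acts on Rab35, was lower in tumor, with log2 fold changes of -3.18 ± 0.13 (adjusted p = 7.44e-08) and -2.87 ± 0.13 (adjusted p = 9.14e-08), from 1966 to 3384 reads per library outside the tumor to 410 to 465. Tbc1d24 and Tbc1d7 were lower in blood than in bone marrow, with 2 to 5 reads against 50 to 96 and 1 to 4 against 13 to 32 (adjusted p = 0.000328 and 0.00255).

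Of 37 effectors tested, 16 were higher and 12 lower in tumor than in blood, and 15 and 10 compared with bone marrow. Against blood this split is near the 39.2% higher and 27.1% lower of all genes tested, and 30.0% and 25.8% were called against bone marrow. Lrrk2, the kinase that phosphorylates several Rabs, was lower in tumor, with log2 fold changes of -1.90 ± 0.12 (adjusted p = 6.01e-07) and -3.31 ± 0.12 (adjusted p = 4.78e-08), in the same direction as Rab29. Rab11fip4, which binds Rab11, was lower as well, with -3.19 ± 0.19 (adjusted p = 3.53e-07) and -1.89 ± 0.19 (adjusted p = 1.15e-05). Sytl1, which binds Rab27a, was lower in tumor and in blood than in bone marrow, with log2 fold changes of -3.18 ± 0.46 and -2.78 ± 0.46 (adjusted p = 0.000173 and 0.00075). Mlph, the melanophilin of pigment cells, had 209 to 438 reads per tumor library, at most 1 in bone marrow and at most 5 in blood (adjusted p = 0.000139 against blood). Sytl2 had 40 to 50 reads in tumor, at most 3 in blood and none in bone marrow, at least 39.4-fold higher in tumor than in bone marrow. Sytl4, found in platelets, had 28 to 66 reads in blood, 0 to 8 in bone marrow and 0 to 2 in tumor (adjusted p = 0.000984 for tumor against blood), and Sytl3 was higher in blood than in bone marrow by 2.17 ± 0.77 (adjusted p = 0.0426). Bicd1, which links Rab6 to dynein, had 145 to 305 reads in tumor and at most 6 elsewhere (adjusted p = 0.00288 against blood). Mlph, Sytl2 and Bicd1 passed the read filter through their tumor libraries alone, and Sytl4 through blood alone. Their adjusted p is thus no separate support for a higher level there. Tumor epithelium, acinar and fibroblast markers were at 2800 to 5340, 603 to 2240 and 970 to 1110 RPM in the same tumor libraries, and platelet markers at 751 to 1010 RPM in blood, and their part in these effectors was not tested.

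The 12 members not tested were Rab3b, Rab3c, Rab9b, Rab17, Rab26, Rab30, Rab33a, Rab36, Rab39, Rab39b, Rab40b and Rab42. None reached 10 reads in 3 libraries. The highest of them, Rab40b, had 17 reads in 1 tumor library, and Rab36 had 16 in 1 bone marrow library. Of these, Rab26 had 5 to 7 reads in each tumor library beside at most 4 elsewhere, and Rab30 had 0 reads in all bone marrow libraries and 0 to 13 in blood and tumor. Summed over each compartment, Rab17 had 27 tumor reads against 1 in bone marrow, a 23.6-fold ratio with a 95% counting interval of 3.89 to 967, and 0 in blood, at least 5.90-fold lower. Rab40b had 24 tumor reads, 17 of them in 1 library, against 1 in bone marrow (21-fold, 3.42 to 863) and 1 in blood (15.7-fold, 2.56 to 647), and Rab26 had 17 against 1 in bone marrow (14.9-fold, 2.33 to 621). These intervals cover counting error alone, and the spread between libraries was not tested for these members with the filter used here. With a filter of at least 5 reads in any library 54 members were tested, of which 10 were higher in tumor than in blood and 11 higher than in bone marrow. With that filter 22 and 21 members were lower in the same comparisons. Of all 17714 genes it tested, 5996 were higher and 3735 lower against blood, and 4770 and 3459 against bone marrow.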

How the data were processed

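RNA from 9 libraries of sorted neutrophils, 3 per compartment, was sequenced after SMARTSeq v2 amplification. The submitters' processing notes name STAR 2.5.2b, featureCounts 1.5.0 and edgeR 3.8.6 on GRCm38. The authors deposited log2 FPKM values for 46517 genes, computed with scaled library sizes, a small constant (0.25 reads in a library of mean size) and a gene length equal to the genomic span (100% of 27555 genes whose versioned identifier is in GENCODE M21). Whole reads were recovered from the steps between values for all 46517 genes (tolerance 0.01 reads, checked on simulated data), and intervals from them cover counting error only.

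Compartments were compared by limma (version 3.58.1, R 4.3.3) on the deposited log2 FPKM values of 13014 genes with at least 10 recovered reads in at least 3 libraries. A gene with few reads in the other compartments passed this filter only through the compartment where it was high. The adjusted p of such a gene is no separate support for its higher level. The fit held all 9 libraries, with eBayes trended on mean log2 reads and Benjamini-Hochberg adjusted p under 0.05 over all genes tested. It was tested on simulated data. The p-values measure the spread between pooled libraries. Gene symbols on more than 1 row were left out of the regulator lists. Values by library are given for the secretory members, members called in tumor against both compartments and members called with a log2 fold change of 1 or more in size in any comparison. Of the regulators, the 3 called with the largest change per direction and comparison and the prenylation and extraction genes are named, except 1 that is not reported here, and further genes were named after their values were seen. The members and lists were chosen with earlier results of these data known. Alternatives covered filters, pseudocounts, scaling, variance model, limma-voom on recovered reads, a fold threshold, the samples fitted, the replicate block and each library left out.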

Additional observations from a re-analysis of the deposited data

How the results depend on the processing

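Of 72 calls on single Rab genes, 41 held under all 26 alternatives that could test them, 58 held without any 1 library, and limma-voom on the recovered reads with the authors' scaling lost none. Against blood, the 8 higher calls became 5 with the filter on log2 FPKM over 0, 5 with the filter of at least 50 reads, and 15 with limma-voom on plain totals and at least 5 reads in any library, an alternative chosen after seeing the data. The 22 lower calls became 14 with plain totals, 13 with a log2 fold change of 1 or more in size, and 13 with that limma-voom fit. Against bone marrow, the 8 higher calls became 4, 5 and 15 under the same 3 settings, and the 22 lower calls became 13, 13 and 14. The 2 filters also tested fewer members, 30 and 36. Between blood and bone marrow, the 7 higher calls became 11 with median centring, 3 without a variance trend and 2 with the fold threshold, and the 5 lower calls became 3 with the fold threshold. The cause was not tested for the others. Leaving out 1 library gave 8 to 9 higher and 19 to 22 lower calls against blood, 7 to 8 and 19 to 22 against bone marrow, and 3 to 7 and 4 to 7 between blood and bone marrow. Rab33b against bone marrow turned from -0.43 to 0.024 with plain totals and 0.011 with limma-voom on plain totals. Deviations of same-numbered libraries correlated at -0.143 to 0.0787, beside -0.143 to 0.145 for libraries with different numbers. With so few libraries these values cannot show whether the numbers pair the libraries. With the replicate block there were 8 higher and 21 lower members against blood, 8 and 20 against bone marrow, and 7 and 5 between blood and bone marrow. The block lost Rab21 against blood and Rab33b and Rab8b against bone marrow (adjusted p = 0.0544, 0.0527 and 0.0517). The 12 members not tested had too few reads for the filter used.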
